A study of Homo sapiens with 24 samples.

Results

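Homeobox genes encode transcription factors that bind DNA through a homeodomain and set the identity of body segments, organs and cell types. The mRNAs described here were found by gene symbol among the Ago2 peaks of 293S cells: the HOX genes, and with them the NKX, MEIS, PBX, TGIF, CUX, ZHX, IRX, LHX, POU, ADNP, MSX, DLX and PITX families and the SIX4, SIX5 and SATB1 genes. The rule also names PKNOX, OTX, ZEB1, ZEB2, HMBOX1 and HOMEZ, which had none of the peaks counted here. The genes found carried 208 of the 24041 peaks in the table, in 49 of 6088 genes. Of these, 111 peaks lay in 20 HOX genes and 97 peaks in 29 other homeobox genes, and both sets are given apart.

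293S is a line derived from human embryonic kidney. Adherent cultures were left untreated or received sodium arsenite, a thiol-reactive stressor, at 1 mM for 30 min before crosslinking and immunoprecipitation of Ago2 (CLIP), the Argonaute protein that carries miRNAs to mRNAs. The series holds 24 samples in 6 groups of 4 biological replicates, with and without arsenite, namely mRNA CLIP, RNA-seq of the same samples, not analysed here, and a CLIP band (the LO band, same antibody from Abnova) from which the miRNAs were counted. For each peak the table holds 2 numbers over all replicates, a log average of the normalized signal and the log ratio between arsenite and untreated cells. Both values are the authors', and neither their log base nor their normalizer is given in the sources used here, so no fold is stated, and without replicate values there is no test, no error and no depth. A log ratio above 0 means more normalized Ago2 signal with arsenite, on a zero point set by the authors' scaling. A lower level of an mRNA and less Ago2 on each copy of it cannot be told apart from these values, nor can fewer cells and less RNA per cell. Of 7 genes taken as markers of 293-type cells, 2 (NEFL and VIM) had peaks, and of 4 markers of other cell types none had.

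HOX genes lie in 4 clusters, A to D, and are numbered by paralog group from the 3′ to the 5′ end of a cluster. Low numbers act towards the head and high numbers towards the tail and the limb ends. The clusters also hold miRNA genes. In the RefSeq annotation miR-196b lies between HOXA9 and HOXA10, the miR-196a genes lie between HOXB9 and HOXB13 and between HOXC9 and HOXC10, and miR-10a lies within HOXB3. miR-10b lies between HOXD4 and HOXD8. The miR-196 family is known for repressing HOX mRNAs, and its near-complete pairing with HOXB8, which leads to cleavage, is a textbook case.

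The miRNAs below are miR-196a, miR-196b and miR-10a of the HOX clusters and the leading members of 3 other seed families. Each of these 3 families had at least 5 peaks in homeobox mRNAs. The sequences of miR-10b and miR-615, also of the HOX clusters, are not printed. The sequences are RefSeq mature miRNAs, 5′ to 3′, with the seed (bases 2 to 8) in capitals.
miR-196a-5p: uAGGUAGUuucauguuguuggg
miR-196b-5p: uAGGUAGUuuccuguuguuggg
miR-10a-5p: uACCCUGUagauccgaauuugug
miR-27a-3p: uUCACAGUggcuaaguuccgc
miR-301a-3p: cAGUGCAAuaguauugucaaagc
miR-185-5p: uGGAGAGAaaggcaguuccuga
The 2 forms of miR-196 share the seed and differ by A12C, counted from the 5′ end of miR-196a-5p. The letters of an mRNA that pair with a seed are ACUACCU for miR-196, ACAGGGU for miR-10, ACUGUGA for miR-27, UUGCACU for the miR-130 family of miR-301a, and UCUCUCC for miR-185.

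Ago2 signal on HOX mRNAs was mostly higher with arsenite, by less than on the transcriptome at large. Of the HOX peaks, 76 of 111 (68.5%) had a log ratio above 0, near the 70.3% of all peaks, and their median was 0.40 against 0.65 over all peaks. Set against that median of all peaks instead of 0, only 35.1% of HOX peaks lay above, with a median of -0.26, so the direction for HOX depends on the zero point. Large positive values were less common among them: 31 of 111 (27.9%) exceeded 1, against 39.1% of all peaks. Values below -1 made up 15 of 111 (13.5%), against 7.43% of all peaks. The other homeobox genes lay higher, with 74 of 97 peaks (76.3%) above 0, a median of 0.80, 41 peaks (42.3%) above 1 and 7 (7.22%) below -1, and 53.6% of them lay above the median of all peaks. No test of these differences was possible, and neighbouring peaks overlap: merging overlapping peaks left 93 HOX peaks and 84 of the others.

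With 1 peak per gene, the one with the highest log average, 16 of 20 HOX genes lay above 0, the same share as the 79.9% of all genes to within 1 gene, but their median was 0.34 against 1.10. Of the other homeobox genes 22 of 29 lay above 0, with a median of 1.19. With the median over the peaks of each gene, 14 of 20 HOX genes (70.0%) and 24 of 29 others (82.8%) lay above 0, against 81.3% of all genes. Peaks on both sides of 0 in the same mRNA occurred in 11 of the 16 HOX genes with at least 2 peaks and in 9 of 17 others, where 50.8% of all such genes had them. HOX genes also carried more peaks, with a median of 3.5 per gene against 2 for all genes, and 9 of 20 had at least 5, against 23.7% of all genes.

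**Figure D1:**
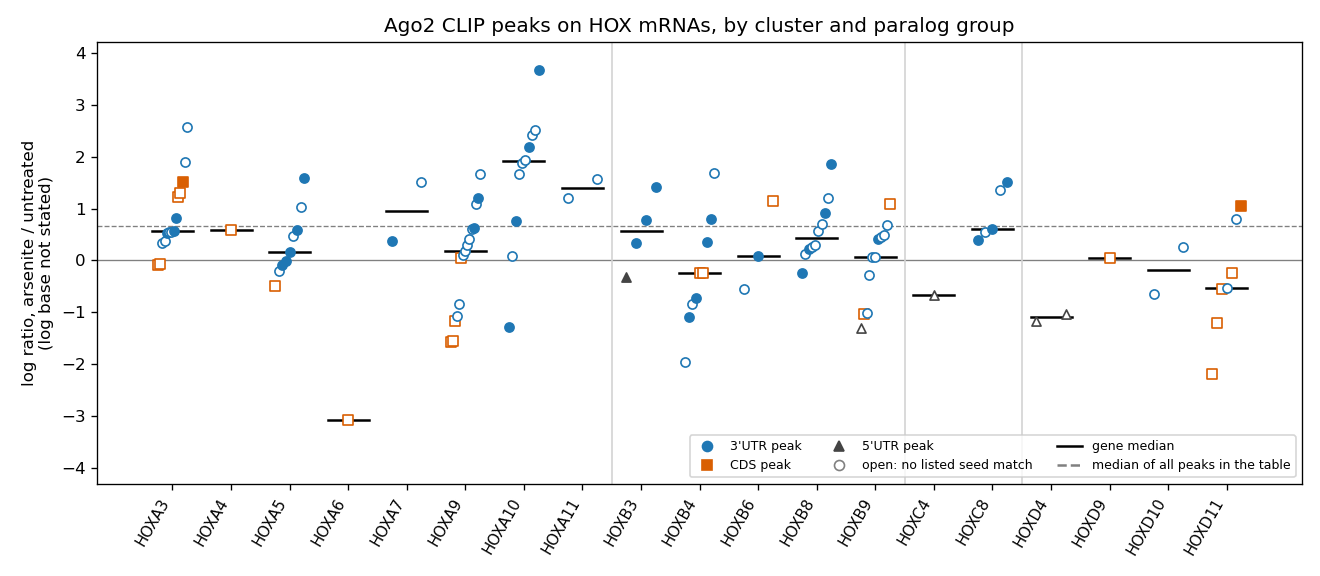
Log ratio (arsenite over untreated, log base not stated) of each Ago2 peak on the HOX mRNAs reported by name, ordered by cluster and paralog group; symbols give the transcript region, filled symbols a match to a listed miRNA seed, black bars the gene median and the dashed line the median of all peaks, 0.65. HOXA10 holds the highest value, 3.67, HOXA6 the lowest, -3.08, and both HOXD4 peaks lie below 0.

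Where a HOX peak lay in its transcript went with its sign. In 3′ untranslated regions (3′UTRs) 65 of 81 HOX peaks (80.2%) were above 0, beside 76.2% of all 3′UTR peaks, yet their median of 0.53 was below the 0.88 of all 3′UTR peaks. In coding sequence (CDS) 11 of 25 HOX peaks (44.0%) were above 0, beside 68.4% of all CDS peaks, with a median of -0.08 against 0.58. None of the 5 HOX peaks in 5′UTRs was above 0, beside 60.8% of all 5′UTR peaks. These 5 peaks lay in only 4 genes, HOXB3, HOXB9, HOXC4 and HOXD4. For the other homeobox genes the counts above 0 were 50 of 59 in 3′UTRs, 20 of 29 in CDS and 4 of 9 in 5′UTRs, with medians of 1.22, 0.24 and -0.02. The order of the regions was thus the same in both sets as over the whole table.

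**Figure D2:**
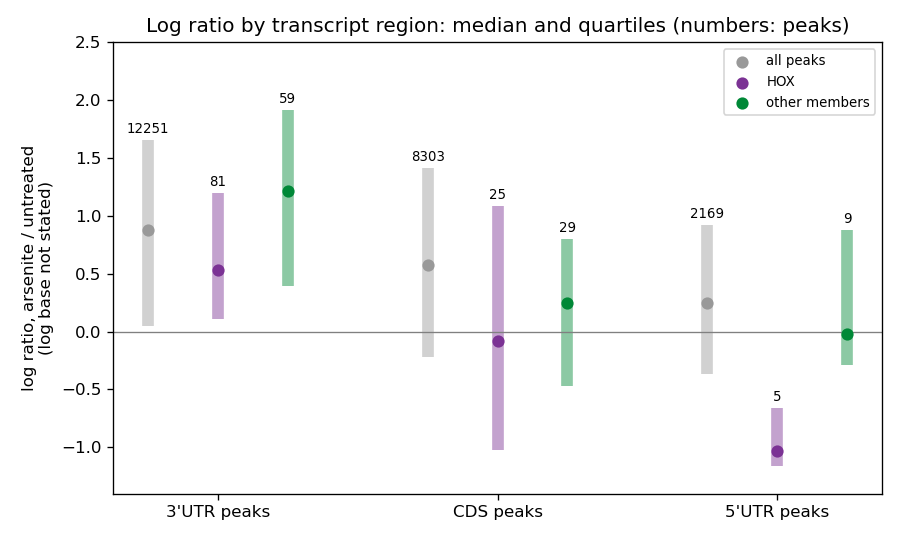
Median (point) and quartiles (bar) of the log ratio by transcript region for all peaks, HOX peaks and peaks of the other homeobox genes; the numbers count peaks, and the log base is not stated. HOX medians are 0.53 in 3′UTRs, -0.08 in CDS and -1.03 in 5′UTRs, each below the median of all peaks in that region.

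HOX peaks also had high log averages, and a peak with a high log average is called strong here. Since the normalizer is not known, a strong peak need not mean much Ago2 on the mRNA. Their median log average was -3.67, against -5.18 for all peaks, and 71 of 111 (64.0%) lay above the upper quartile of log averages of the table, -4.02. The other homeobox genes had a median of -4.40 and 44 of 97 (45.4%) there. Within these, 52 of 71 HOX peaks (73.2%) had a log ratio above 0, beside 67.4% of all such peaks, and the medians were 0.54 and 0.53. Most of these HOX peaks lie in 3′UTRs. Among strong peaks of 1 region, HOX 3′UTR peaks had a median of 0.56 against 0.80 and HOX CDS peaks -0.01 against 0.44.

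The HOXA cluster gave the widest range. Its 56 peaks had a median of 0.58, and 43 of them (76.8%) were above 0, beside 0.65 and 70.3% for all peaks. HOXA10, a posterior gene needed for the uterus and the limb, carried 10 peaks, all in the 3′UTR (hg19, minus strand, from chr7:27210261-27210297 to chr7:27211438-27211490). From 5′ to 3′ their log ratios were 0.08, -1.28, 0.76, 1.67, 2.41, 1.87, 3.67, 1.94, 2.52 and 2.18. The 7 peaks towards the 3′ end were thus all above 1.6, and the first 3 were all below 1. The highest value belonged to a peak (chr7:27210471-27210549) that matches miR-27 and miR-340-5p, and the lowest to one that matches miR-29. HOXA11, its neighbour with roles in kidney and limb, had 1.58 and 1.20 in its 3′UTR.

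HOXA9, a gene of blood stem cells and leukaemia, went both ways within 15 peaks. Its 4 CDS peaks had log ratios of -1.17, -1.57, -1.55 and 0.05, from 5′ to 3′. Its 11 3′UTR peaks ran from -1.08 to 1.67 with a median of 0.41, and 9 of them were above 0. The coding and 3′UTR peaks of HOXA9 thus overlapped only in part, with the CDS median at -1.36. HOXA5, which acts in the lung, had 9 peaks from -0.49 in the CDS to 1.58 at a 3′UTR peak with a miR-130 match. Its strongest peak, with a log average of -1.23, had a log ratio of 1.02. HOXA3, which patterns the pharyngeal arches, had 12 of 14 peaks above 0 and a median of 0.56, with 2.58 at the highest.

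HOXA4, HOXA6 and HOXA7 had 1 or 2 peaks each. HOXA7 had 1.52 and 0.37 in its 3′UTR, and HOXA4 had 0.60 at a CDS peak. HOXA6 stood at the other end, with a single CDS peak (chr7:27187279-27187344) at -3.08. That peak had a log average of -1.001, higher than 98.8% of all peaks, and matches no listed seed. HOXA6 is thus represented by 1 region only, and whether the rest of its mRNA behaved alike is not known from these values.

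HOXB peaks lay lower than HOXA peaks, with 24 of 37 (64.9%) above 0 and a median of 0.26. Over all peaks these values were 70.3% and 0.65. HOXB4, which expands blood stem cells when overexpressed, had 6 of 9 peaks below 0. From 5′ to 3′ its log ratios were -0.25, -0.24, -0.84, -1.09, -1.95, 0.36, -0.71, 1.69 and 0.80. The peaks above 0 thus lay among the last 4, which are not all separate positions. The peaks at 0.36 and -0.71 share a 5′ end despite their opposite signs, and the 1.69 peak overlaps the one at 0.36. HOXB9 had 7 of 11 peaks above 0 and a median of only 0.07, with its 5′UTR peak at -1.30 and its first CDS peak at -1.03. HOXB8 had 9 of 10 peaks above 0, all in the 3′UTR, with a median of 0.43 and a highest value of 1.85 at a miR-27 match. Of all 3′UTR peaks 76.2% were above 0, with a median of 0.88. No miR-196 match is listed for any HOXB8 peak. Only matches to the 7 seed letters are listed, so this does not show whether the known HOXB8 site was bound. HOXB3 had 1.42, 0.78 and 0.34 in its 3′UTR and -0.32 in its 5′UTR, and HOXB6 had 1.15, -0.56 and 0.09.

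In the HOXC cluster 5 of 6 peaks (83.3%) were above 0, beside 70.3% of all peaks. HOXC8, a gene of the thoracic skeleton, had all 5 of its peaks in the 3′UTR and above 0, at 1.51, 1.35, 0.60, 0.54 and 0.40 from 5′ to 3′. The 1 peak given to HOXC4 (chr12:54410926-54410957) is in its 5′UTR and had -0.66. HOXC4, HOXC5 and HOXC6 are known to share a 5′ exon, so signal at such a peak need not be that of HOXC4 alone.

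HOXD was the cluster in which most peaks were below 0: 8 of 12, with a median of -0.53. HOXD11, which acts with HOXA11 in the kidney and the forearm, had 5 CDS peaks at -0.54, -1.21, -0.25, -2.19 and 1.05 and 2 3′UTR peaks at 0.79 and -0.53. The only CDS peak above 0 in HOXD11 is also the only one with a seed match, to miR-324-3p. Over all 277 peaks matching that family the median was 0.22 and 57.8% were above 0, against 0.65 and 70.3% of all peaks. No link between match and value can be read from this 1 peak. HOXD4 had -1.03 and -1.16 at 2 overlapping 5′UTR peaks. HOXD10 had 0.27 and -0.64, and HOXD9 had 0.04. HOXD peaks were less often in 3′UTRs (4 of 12) than those of HOXA (42 of 56). Within 3′UTRs 2 of 4 HOXD peaks were above 0, with a median of -0.13, against 36 of 42 and 0.59 for HOXA. Within CDS 2 of 6 HOXD peaks were above 0, with a median of -0.39, against 7 of 14 and -0.01 for HOXA. HOXD thus lay lower than HOXA in both regions, on few peaks.

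Of the 7 paralog groups with more than 1 gene listed, some lay close together and others apart. In group 3 the gene medians were 0.56 for both HOXA3 and HOXB3, and in group 8 they were 0.43 for HOXB8 and 0.60 for HOXC8. Group 9 was also close, with gene medians of 0.19 for HOXA9, 0.07 for HOXB9 and 0.04 for HOXD9. In group 4 they were 0.60 for HOXA4, -0.25 for HOXB4, -0.66 for HOXC4 and -1.10 for HOXD4. Group 10 paired 1.91 for HOXA10 with -0.18 for HOXD10, and group 11 paired 1.39 for HOXA11 with -0.53 for HOXD11. In groups 4, 9, 10 and 11 the HOXA gene median was thus the highest, and in group 3 HOXA3 and HOXB3 were level. In group 6 HOXA6 at -3.08 was below HOXB6 at 0.09. These medians mix regions. HOXA4, HOXA6 and HOXD9 have 1 CDS peak each, and HOXC4 and HOXD4 have only 5′UTR peaks. In 3′UTRs HOXA9 at 0.41, HOXA10 at 1.91 and HOXA11 at 1.39 were above HOXB9 at 0.24, HOXD10 at -0.18 and HOXD11 at 0.13. HOXA3 at 0.55 was there below HOXB3 at 0.78. In CDS HOXA4 at 0.60 was above HOXB4 at -0.24, and HOXA9 at -1.36 was below HOXD9 at 0.04. By position, peaks of groups 1 to 4, 5 to 8 and 9 to 13 had medians of 0.53, 0.43 and 0.28, against 0.65 for all peaks. Their shares above 0 did not follow that order, with 63.6%, 76.7% and 66.7%, against 70.3% of all peaks. Transcript region was not held fixed in these values.

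Within single mRNAs, the median of the 3′UTR peaks was above that of the CDS and 5′UTR peaks in 5 of 8 HOX genes that had both, and in 7 of 11 other homeobox genes, beside 63.1% of all such genes. The share was thus that of the transcriptome. The largest differences among HOX genes were 1.77 in HOXA9, 1.26 in HOXB9 and 1.11 in HOXB3. HOXB6, HOXA3 and HOXB4 had the opposite sign, with -1.38, -0.68 and -0.47.

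**Figure D3:**
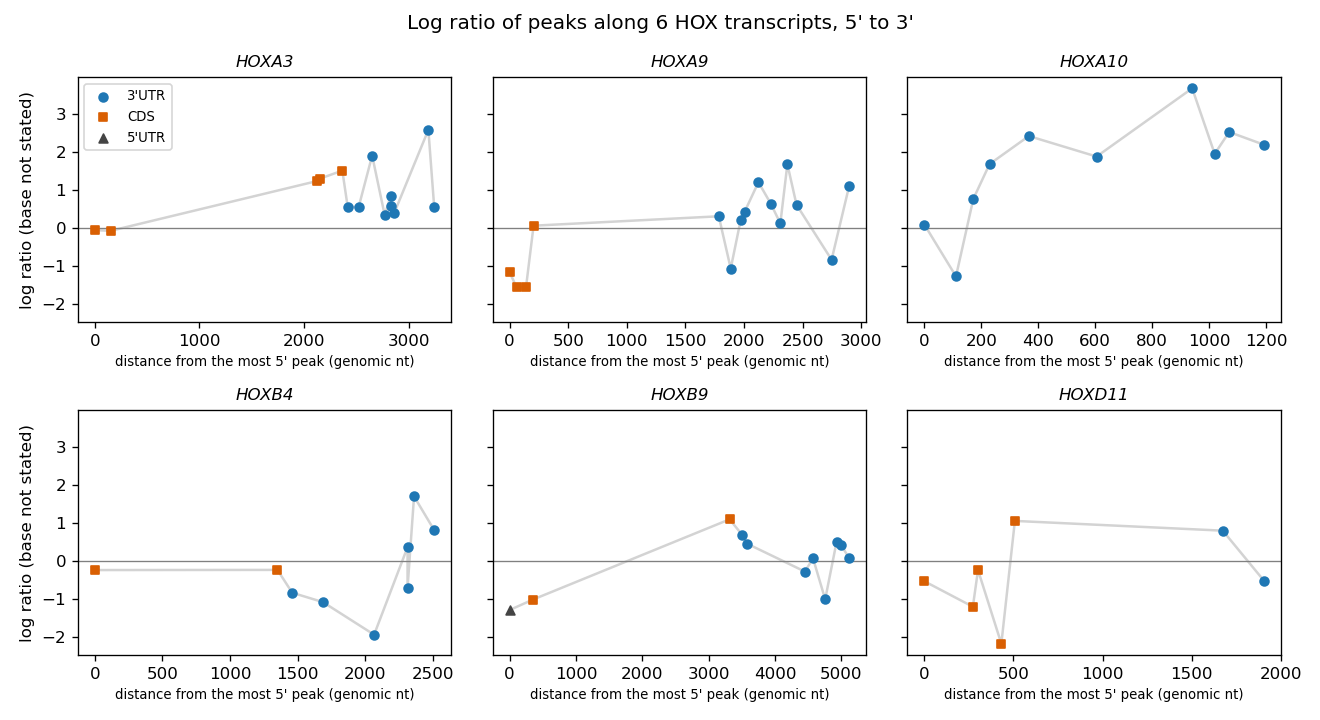
Log ratio (log base not stated) of the peaks on 6 HOX transcripts against the distance in genomic nucleotides, introns included, from the most 5′ peak, with the region given by symbol. In HOXA10 the first 3 values lie below 1 and the others between 1.67 and 3.67. In HOXB4 the 3 values above 0 lie among the last 4 peaks, some of which overlap.

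Seed matches separated HOX 3′UTR peaks little. The authors searched the seeds of 50 miRNA families, and 36 of 111 HOX peaks (32.4%) and 24 of 97 others (24.7%) match at least 1, beside 31.5% of all peaks. With a match 29 of 36 HOX peaks were above 0, beside 79.2% of all peaks with one, and without a match 47 of 75 were, beside 66.2%. Within 3′UTRs, however, the HOX counts were 25 of 31 (80.6%) with and 40 of 50 (80.0%) without a match, and the medians 0.57 and 0.48, where all 3′UTR peaks had 1.20 and 0.68. In HOX coding sequence all 4 matching peaks were above 0, and 7 of 21 others were. The other homeobox genes differed from HOX in this respect: their 17 matching 3′UTR peaks had a median of 1.98 and the 42 without a match 0.95. Taking peaks of 1 gene in 1 region, the median with a match was the higher in 8 of 12 HOX pairs and in 7 of 10 others, beside 60.2% of all pairs.

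The HOX-cluster miRNAs met HOX mRNAs at 6 peaks, all in 3′UTRs and all above 0. For miR-196 these were 2 peaks in HOXC8 and 1 each in HOXA7, HOXA9 and HOXB6. Of all 204 miR-196 peaks 86.8% were above 0, and of the 104 in 3′UTRs 95.2% were. The first HOXC8 peak (hg19, plus strand, chr12:54406012-54406052) had a log average of -0.35, the highest of all 204, and a log ratio of 1.51. The other HOXC8 match (chr12:54406160-54406201) had 0.60, HOXA9 (chr7:27202840-27202926) 1.20, HOXA7 (chr7:27193999-27194077) 0.37 and HOXB6 (chr17:46673265-46673380) 0.09. Of these 5, only the first HOXC8 peak was above the 1.39 median of all miR-196 peaks. The miR-10 match lies in HOXB3 (chr17:46626814-46626874), the gene that also holds miR-10a, with 1.42, beside a median of 1.23 and 77.3% above 0 over all 97 miR-10 peaks. The 73 miR-10 peaks in 3′UTRs had a median of 1.37, with 79.5% above 0. PBX3, a DNA-binding partner of HOX proteins, has a 3′UTR peak that matches both miR-196 and let-7, at 1.98.

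**Figure D4:**
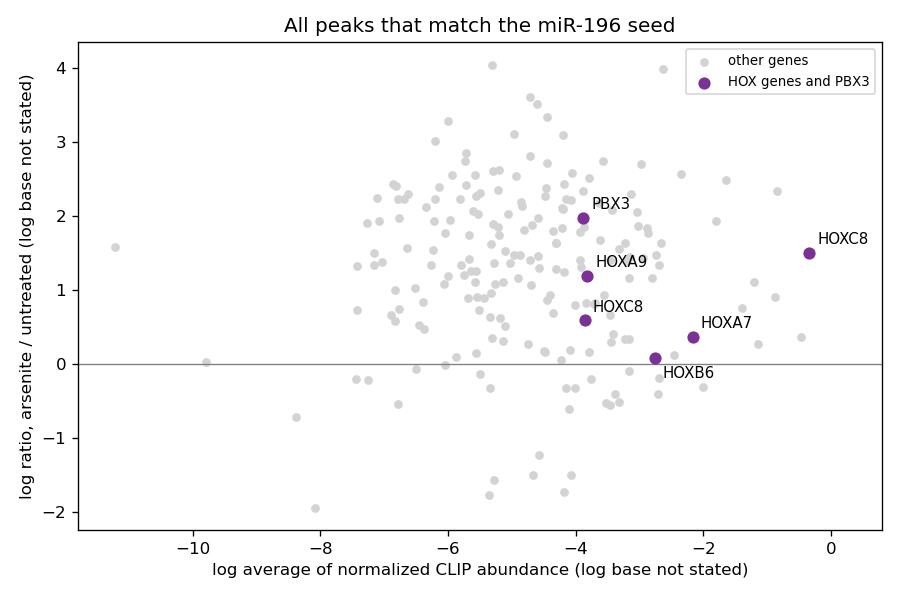
Log ratio against log average (log bases not stated) of the 204 peaks with a miR-196 seed match, with those in HOX genes and PBX3 named. The first HOXC8 peak has the highest log average of all, -0.35, and the 6 named peaks lie between 0.09 and 1.98.

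Both forms of miR-196 were abundant on Ago2 and differed little between treatments. In the authors' deposited table miR-196b-5p ranked first of 1000 mature miRNAs, with normalized means of 2333835 untreated and 2301175 with arsenite. Its log2 fold change was -0.02, for which the authors' deposited table gives a DESeq p of 0.928 and an adjusted p of 1. miR-196a-5p ranked 20th there, with a log2 fold change of 0.02 in the authors' deposited table. miR-10a-5p had means of 8492 and 10764 and a log2 fold change of 0.34, at an unadjusted DESeq p of 0.215, in the authors' deposited table. miR-10b-5p had 0.32 and miR-615-3p, from within the HOXC genes, -0.03 on the log2 scale in the authors' deposited table. The passenger strands miR-10a-3p, miR-10b-3p, miR-196a-3p, miR-196b-3p and miR-615-5p were scarce, with normalized means from 3.04 to 1012 and log2 fold changes from -1.83 to 0.05 in the authors' deposited table. None of these passed the adjusted threshold of 0.05, nor did any of the 1213 entries of the authors' deposited table, although 24 had an unadjusted DESeq p under 0.05.

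Other seed families touched several HOX mRNAs. The 5 HOX peaks matching miR-130, in HOXA3 (2 overlapping peaks), HOXA5, HOXB3 and HOXC8, were all above 0, from 0.40 to 1.58, with a median of 0.78 against 1.55 for all 417 peaks of that family, of which 92.3% were above 0. The 5 matching miR-27, in HOXA5 (2 overlapping peaks), HOXA10, HOXB3 and HOXB8, ran from 0.17 to 3.67 with a median of 0.58 against 1.20 for that family, of which 83.5% were above 0. The 5 matching miR-185, in HOXB4 (2 overlapping peaks), HOXB6 and HOXB8 (2 overlapping peaks), ran from -0.71 to 0.36, and 3 were above 0, beside 61.7% of that family. All peaks of that family also had a low median, 0.27. In the authors' deposited table the leading members miR-27a-3p, miR-301a-3p and miR-185-5p had log2 fold changes of -0.07, 0.30 and -0.30, with adjusted p of 1 by DESeq. Peaks with miR-26 matches, chosen here after their values were seen, had low values in HOX mRNAs: -0.01 and -0.09 at 2 overlapping peaks of HOXA5 and 0.63 in HOXA9, against a median of 1.53.

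Among the TALE homeodomain proteins, which include the DNA-binding partners of HOX proteins, values split by gene. PBX3 had its single peak at 1.98, and MEIS2, another partner, 1.68. PBX2 had 5 of 7 peaks below 0, from -1.59 to 1.22, although 4 of the 7 are in the 3′UTR. TGIF1, a repressor in TGF-beta signalling, had 1.56, 1.89, 1.92 and 0.69 in its 3′UTR, where the second matches miR-19 and the last miR-25/92. Its close relative TGIF2 had 2.24. The IRX genes, of the Iroquois family, had 1.79 for IRX3 and 1.82 for IRX5. PBX2 was thus the only one of these TALE genes with peaks below 0. All the others except TGIF1 had a single peak, and 70.3% of all peaks were above 0.

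The POU factors spread widely. POU2F1, the widely expressed factor OCT1, had 7 of 9 peaks above 0, beside 70.3% of all peaks. Its last 5 peaks, all in the 3′UTR, had -1.59, 2.64, 2.45, 0.88 and 3.65 from 5′ to 3′, and the last of these (chr1:167393533-167393566) was its strongest peak. POU4F1, the sensory neuron factor BRN3A, had 14 peaks close to 0, from -0.74 to 0.96, with a median of 0.21. POU3F3, a neural and kidney factor, had 6 CDS peaks at -0.73, -0.08, 0.24, 0.18, 0.33 and -1.81. The peak with 0.24 had a log average of 1.03, the highest of any homeobox peak. POU3F2 had -1.29 in the CDS and 1.26 in the 3′UTR.

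SIX4, a partner with EYA and PAX proteins in the gene network of kidney and muscle, was high throughout. Its 7 peaks ran from 0.77 to 2.37, and the 4 with a seed match had 2.37 (miR-30), 2.07 (miR-103), 2.15 (miR-151a-3p with miR-28-3p) and 2.22 (miR-101-3p). The 4 matching peaks all lie in the 3′UTR. The 3 SIX4 peaks without a match were lower, with 0.77 in the CDS and 1.02 and 0.87 at overlapping 3′UTR peaks. Over all pairs of 1 gene and 1 region, the median with a match was the higher in 60.2%. SIX5, by contrast, had 5 peaks from -0.29 to 1.32, none with a match and none in the 3′UTR. LHX1, a LIM factor of the early kidney, had 2.23 at a 5′UTR peak with let-7 and miR-17 matches and 1.91 in the 3′UTR. LHX8 had 0.29.

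In the NK-like group MSX1, which acts in limb and tooth, had 2.73 in the 3′UTR and 0.88 in the 5′UTR. DLX1 had 1.19, DLX2 had 1.76 and 1.60 at overlapping peaks, and NKX2-4 had 1.85. NKX3-2, a skeletal repressor, was the exception, with a single CDS peak (chr4:13544063-13544087) at -2.80 and a log average of 0.62, higher than 99.9% of all peaks. HOXA6 and NKX3-2 were thus alike in having 1 strong coding peak far below 0 with no seed match. PITX1, a hindlimb factor, had all 4 peaks above 0, with 1.82 in the CDS and 0.94, 0.45 and 0.07 in the 3′UTR.

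CUT and zinc finger homeobox genes bind DNA through further domains beside the homeodomain. CUX1 had 6 of 7 peaks above 0 with a median of 1.56, beside 70.3% and 0.65 for all peaks. Its 2 peaks matching miR-25/92 had 1.94 and 1.66. SATB1, a chromatin organizer, had 2.10 and 1.67. ADNP had 1.78 and 1.39 in the 3′UTR and 6 CDS peaks from -0.92 to 1.84, whereas ADNP2 had -1.98 and 0.98. ZHX1 had 2.42 in the 5′UTR and 2.11 in the 3′UTR, ZHX2 1.09 and ZHX3 -1.56, so the 3 ZHX repressors did not share a sign.

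**Figure D5:**
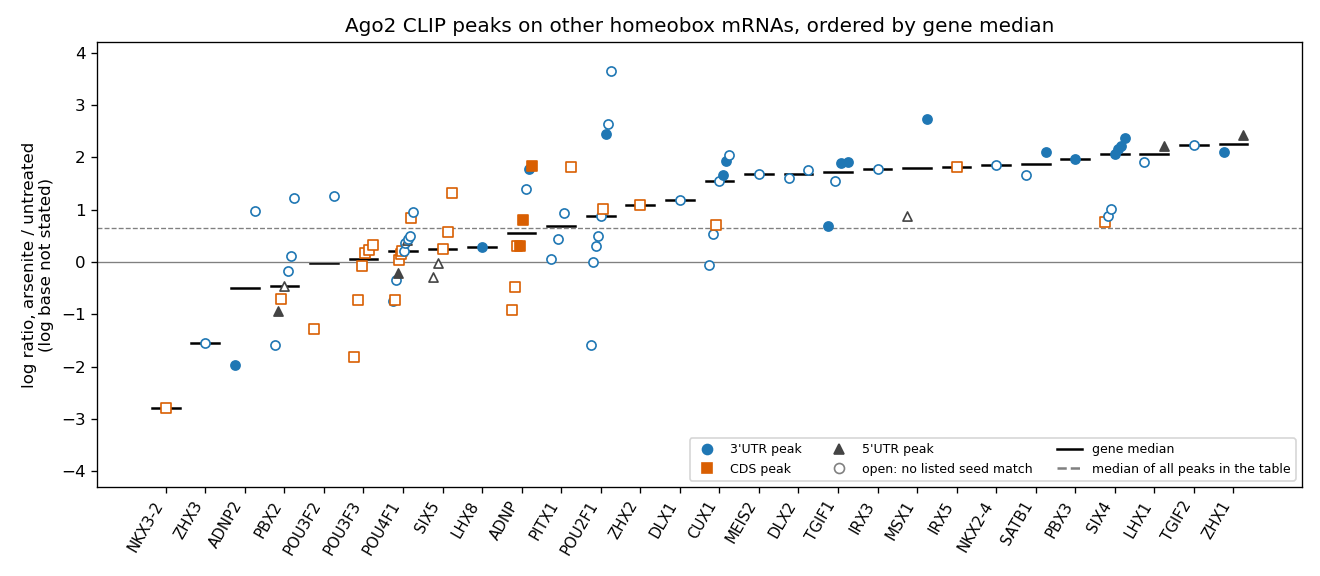
Log ratio (arsenite over untreated, log base not stated) of each Ago2 peak on the other homeobox mRNAs reported by name, ordered by gene median; symbols give the region, filled symbols a seed match, black bars the gene median and the dashed line the median of all peaks, 0.65. NKX3-2 lies lowest at -2.80, and the 7 peaks of SIX4 all lie above 0.

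Genes around the homeobox network were described at the peak with the highest log average, where 79.9% of all genes lay above 0 and the median was 1.10. Of 88 homeobox genes outside these families, 13 had peaks, 9 of them above 0, with a median of 1.62. VAX2, an eye factor, had 2.64 and ZFHX3 2.25, and ALX4 had -1.68 and ONECUT2 -0.51. Over its 3 peaks ZFHX3 had a median of -0.61, of opposite sign to its strongest peak. Of 34 Polycomb and related genes 24 had peaks and 23 lay above 0, with a median of 1.30. Polycomb proteins are known for keeping HOX genes silent, and the list also holds other genes, such as CTCF and GMNN. PCGF3 had 2.63 and PHF19 2.57, and BAP1 had -1.05 and EED 0.07. Over its 3 peaks BAP1 had a median of 0.49, again of opposite sign. Of 18 HOX activators, such as MLL and retinoid receptor genes, 13 had peaks, 10 above 0, with a median of 0.86. MLL3 had 2.64 and ASH1L 2.29, and the retinoid receptors RXRA and RXRB had -0.735 and -0.70. Of 20 noncoding RNAs of the HOX clusters only HOTAIRM1, of the HOXA cluster, had a peak, at 0.29.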

How the data were processed

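CLIP peaks and Ago2-bound miRNAs of 293S cells with and without arsenite were read from 2 tables in which the authors had combined the replicates, so no replicate test could be run. Bowtie 0.12.8, TopHat, DESeq and the build hg19 are listed in the submitters' processing notes, with no role or order. The deposited log averages and log ratios of the peaks were treated as a score, since neither log base nor normalizer is stated, and the peak caller is not given in the sources used here. In the miRNA table the means are signal values normalized by the authors with DESeq, and their ratio (fold), log2 fold change, p-value and adjusted p-value are the authors' DESeq results, per the file headers.

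Members were matched by gene symbol, and counts above 0, medians and quartiles were computed with Python 3.11.15, pandas 2.3.3 and NumPy 2.4.6, beside the same over all peaks or genes, with scripts tested on simulated data. Mature sequences matched 113 of the 133 listed miRNAs (RefSeq, GRCh38.p14). Members and gene lists were chosen with earlier results of these data known. Comparisons within a gene, above the upper quartile of log averages and between clusters or paralogs, and the seed letters that let-7 and miR-196 share, were added after the values were seen.

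Some members are counted but not reported here by name or drawn. Of the rest, those named were every HOX gene with a peak, other members with at least 10 peaks, the 8 highest and 8 lowest of them at the peak of the highest log average, member peaks matching miR-196, miR-10 or the miR-200 family (the last not among the 50 families), 2 genes at each end of a list, miRNAs of the miR-196, miR-10 and miR-615 families, and the most abundant miRNA of families with at least 5 member peaks. The other members were named in addition. Peaks keep the positions as deposited, and the sources do not say if starts begin at 0 or at 1. Sequencing depth behind a peak is unknown.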

Additional observations from a re-analysis of the deposited data

How the results depend on the processing

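The zero point mattered most: centred on the median of all peaks, the HOX median became -0.26 with 35.1% of peaks above it, and the median of the other homeobox genes 0.15 with 53.6%. With 1 peak per gene the HOX share above 0 was 80.0% and the median of the others 1.19, and with the median over the peaks of a gene the HOX median was 0.18 and that of the others 1.19. The median and the share above 0 over all peaks stayed within the 95% binomial interval over peaks in both sets with peaks in the upper 50% of log averages, with overlapping peaks merged, and without HOXA9 or POU4F1, the genes with the most peaks, as did, added after seeing the data, the HOX values without HOXA10 or without the HOXD genes. Medians with and without a seed match stayed within it with overlapping peaks merged. Keeping peaks in the upper 75% of log averages could move values of the other homeobox genes only. Their values over all peaks, by region and by match stayed within the interval. All 111 HOX peaks lie in that upper 75%, so their values could not move, and no other alternative was run for the HOX region medians. The interval treats peaks as independent, although many share a gene and some overlap. Most of these settings also keep most of the same peaks, so staying within it was likely from the start and does not measure robustness. Leaving out antisense and read-through names was not run, since no member has such a name. No paired analysis was possible because each table holds 1 value per feature over all replicates; for the same reason no replicate could be left out. Values of genes with 1 peak, such as HOXA6 and NKX3-2, rest on that peak alone.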

Other observations

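The seeds of let-7 and miR-196 share 6 letters, AGGUAG, and 86 peaks of the table match both families, which is 42.2% of the 204 miR-196 peaks and 24.6% of the 350 let-7 peaks. These shared peaks had a median log ratio of 1.76. The 118 peaks matching miR-196 without let-7 had a median of 1.20, with 99 (83.9%) above 0, and a median of 1.32 over the 64 of them in 3′UTRs. The miR-196 peaks of HOXA7, HOXA9, HOXB6 and HOXC8 all belong to this second kind, and among homeobox mRNAs the peak in PBX3 alone matches both.

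The table puts miR-324-3p in 1 seed family with miR-1913. In the RefSeq annotation used here (GRCh38.p14) the mature sequences of these 2 differ in bases 2 to 8. The table takes its names from miRBase, whose sequences were not compared, so no error in the family is shown. This family is the match listed at the peaks of MSX1 (2.73) and HOXD11 (1.05).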
